A study of Homo sapiens with 6 samples.

Results

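The subject is the proximal signalling module of the B-cell receptor, followed through 9 genes fixed by name: CD79A, CD79B, LYN, SYK, BTK, BLNK, PLCG2, PTPN6 and PRKCB. Each was found once by its symbol among the 25277 gene rows of the deposited table, and all 9 passed the filter used for testing, a mean of at least 1 FPKM (fragments per kilobase of transcript, scaled to the mapped fragments of the library) over the 6 libraries. Jeko and Rec-1, the sources of the RNA, are established human lines of mantle cell lymphoma, a tumour of mature B cells. In all of them a doxycycline-inducible (tet-on) CRISPR/Cas9 vector had been stably introduced and induced for 48 h. The vector was empty in the control of each line (1 library for Jeko, 1 for Rec-1) and carried NR4A1 sgRNA#1 or sgRNA#2, single guide RNAs that direct Cas9 to cut the nuclear receptor gene NR4A1, in the others (2 libraries for each line). No untransduced or uninduced cells were among the groups, and whether each line is a clone or a pool is not given in the sources used here. The series concerns NR4A1 inhibition combined with ibrutinib, a drug that blocks the kinase BTK, 1 of the 9 genes. No label names ibrutinib treatment.

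The B-cell receptor is a membrane immunoglobulin bound to a heterodimer of CD79A and CD79B, whose cytoplasmic tails carry the tyrosine motifs that transmit the signal. On antigen binding the Src-family kinase LYN phosphorylates these tails, SYK docks on them and phosphorylates the adaptor BLNK, and BLNK brings BTK together with its substrate PLCG2. PLCG2 then cleaves a membrane phospholipid into a calcium-releasing messenger and diacylglycerol, which activates protein kinase C beta, the product of PRKCB, while the phosphatase SHP-1, encoded by PTPN6, removes phosphate from the kinases and their substrates. Mantle cell lymphoma cells are known to depend on this pathway in many cases, which is why BTK is a drug target in the disease.

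The target and the identity of the libraries were examined first. NR4A1 was at 64.9% and 74.1% of the control in the libraries labelled Jeko sgRNA 1 and 2, and at 237% and 110% of the control in those labelled Rec-1 sgRNA 1 and 2, so its transcript was not lower in the latter pair. FPKM do not measure whether the gene was cut, so these values do not show the outcome of editing in either line. The library labelled Rec-1 control correlated with the Jeko control at a Pearson r of 0.988 across 10322 protein-coding genes, and with the Rec-1 sgRNA libraries 1 and 2, as labelled, at 0.804 and 0.811. These are correlations across genes, which are not independent replicates. All 7 B-cell markers (among them MS4A1, PAX5, CD74 and EBF1) were above 1 FPKM in every library. Their summed level was 1940 to 3210 FPKM in the Jeko libraries and that labelled Rec-1 control. It was between 1104 and 1726 FPKM in those labelled Rec-1 sgRNA 1 and 2. There EBF1 was 3.9 and 4.6 FPKM against 9.63 to 14.8 FPKM elsewhere, and CD37 was 104 and 67.3 FPKM against at most 7.98 FPKM. CCND1, the cyclin that defines mantle cell lymphoma, was 442 to 815 FPKM over the 3 Jeko libraries and 495 FPKM in the library labelled Rec-1 control, against 0.696 and 0.592 FPKM in those labelled Rec-1 sgRNA 1 and 2. SOX11, the other marker listed for this lymphoma, was 7.11 to 11.1 FPKM in the former 4 and 3.6 and 2.45 FPKM in the latter pair. The summed level of 6 T-cell markers was 2.72 to 5.70 FPKM in the first 4 of these libraries and 103 and 120 FPKM in the last pair, where CD3D reached 66.3 and 95.3 FPKM while CD2 was at 0.0288 FPKM and listed at 0. Of 5 monocyte or macrophage markers 3 stayed under 1 FPKM throughout, and the summed level was 1.63 to 2.30 FPKM against 13.4 and 15.6 FPKM in the same pair, where CD68 alone made up 12.3 and 13.0 FPKM. The part of these marker differences in the results below was not tested. Every comparison of sgRNA with control in Rec-1 sets that pair against a library that resembles the Jeko control.

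The receptor chains were the most abundant transcripts of the module in all 6 libraries. CD79A (chromosome 19, 42381349 to 42385439, plus strand, GRCh37) stood at 273 FPKM in the Jeko control, 265 and 378 FPKM in the libraries labelled Jeko sgRNA 1 and 2, 346 FPKM in that labelled Rec-1 control and 520 and 596 FPKM in those labelled Rec-1 sgRNA 1 and 2. It ranked first of the 9 in each of them and lay between the 98.0th and the 99.1th percentile of protein-coding genes with a value above 0. CD79B (chromosome 17, 62006098 to 62009696, minus strand) was second in each, at 195, 151, 258, 338, 309 and 296 FPKM in the same order of libraries. Both chains were lowest in the library labelled Jeko sgRNA 1. Together they made up between 64.4% (Jeko sgRNA 1) and 75.8% (Jeko sgRNA 2) of the summed FPKM of the 9 genes. An annotated protein-coding gene without a row in the table overlaps CD79B on the same strand, so some fragments could have been shared.

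Among the kinases BTK was the most abundant and the least variable. BTK (chromosome X, 100604326 to 100645784, minus strand), the Tec-family kinase that ibrutinib binds, had rank 3 of the 9 in all 6 libraries. The controls held 67.1 FPKM (Jeko) and 66.2 FPKM (the library labelled Rec-1), with 70.9 and 73.4 FPKM in those labelled Jeko sgRNA 1 and 2 and 86.4 and 96.5 FPKM in those labelled Rec-1 sgRNA 1 and 2. The highest value was 1.46 times the lowest, the smallest such range of the 9 genes. LYN (chromosome 8, 56792394 to 56926728, plus strand), the kinase that starts the cascade, was 27.3, 19.6 and 32.4 FPKM in the Jeko control and the libraries labelled Jeko sgRNA 1 and 2. It was 34.5 FPKM in the library labelled Rec-1 control and 54.9 and 75.4 FPKM in those labelled Rec-1 sgRNA 1 and 2, a 3.84-fold range over the 6. LYN overlaps SNORA1, a small nucleolar RNA gene on the opposite strand with a mean of 12.2 FPKM. It also overlaps annotated genes without a row in the table, so some fragments could have been shared. SYK (chromosome 9, 93564069 to 93660831, plus strand), the kinase that reads the phosphorylated chains, was 21.5, 33.9 and 22.4 FPKM in the 3 Jeko libraries. In the library labelled Rec-1 control it had its lowest level, 14.8 FPKM, and in those labelled Rec-1 sgRNA 1 and 2 its highest, 37.1 and 38.7 FPKM.

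The adaptor and the inhibitory phosphatase had a common feature, a maximum in the library labelled Rec-1 control. BLNK (chromosome 10, 97948927 to 98031344, minus strand), the scaffold that joins SYK to BTK and PLCG2, was 46.1 FPKM there and between 21.4 and 29.0 FPKM in the other 5. PTPN6 (chromosome 12, 7055631 to 7070479, plus strand) was 40.3 FPKM there and between 19.9 and 27.5 FPKM in the other 5. CD79B also had its highest level there, which makes 3 of the 9 genes. The library labelled Rec-1 control held the highest value at 13.5% of all genes tested. BLNK overlaps ZNF518A on the opposite strand, a gene with a mean of 5.05 FPKM. The use of strand is not stated, so some reads from the shared stretch could have been counted for either gene.

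The enzymes at the end of the module varied most. PLCG2 (chromosome 16, 81812884 to 81996290, plus strand) was low in both libraries labelled control, with 14.02 FPKM for Jeko and 15.7 FPKM for Rec-1. It reached 46.9 and 30.7 FPKM in those labelled Jeko sgRNA 1 and 2, and 60.0 and 64.7 FPKM in those labelled Rec-1 sgRNA 1 and 2. Its rank among the 9 was 8 and 7 in those controls and 4 or 5 in each sgRNA library. PRKCB (chromosome 16, 23847304 to 24231932, plus strand) was the least abundant of the 9 in every library. In the Jeko control and the libraries labelled Jeko sgRNA 1 and 2 it was 1.19, 3.04 and 1.93 FPKM, and in that labelled Rec-1 control 2.25 FPKM. The libraries labelled Rec-1 sgRNA 1 and 2 had 13.5 and 17.6 FPKM, which moved PRKCB from between the 29.2th and the 36.4th percentile of protein-coding genes to the 66.9th and the 72.4th. Both PLCG2 and PRKCB overlap annotated genes on the same strand that have no row in the table, so some fragments could have been shared.

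**Figure D1:**
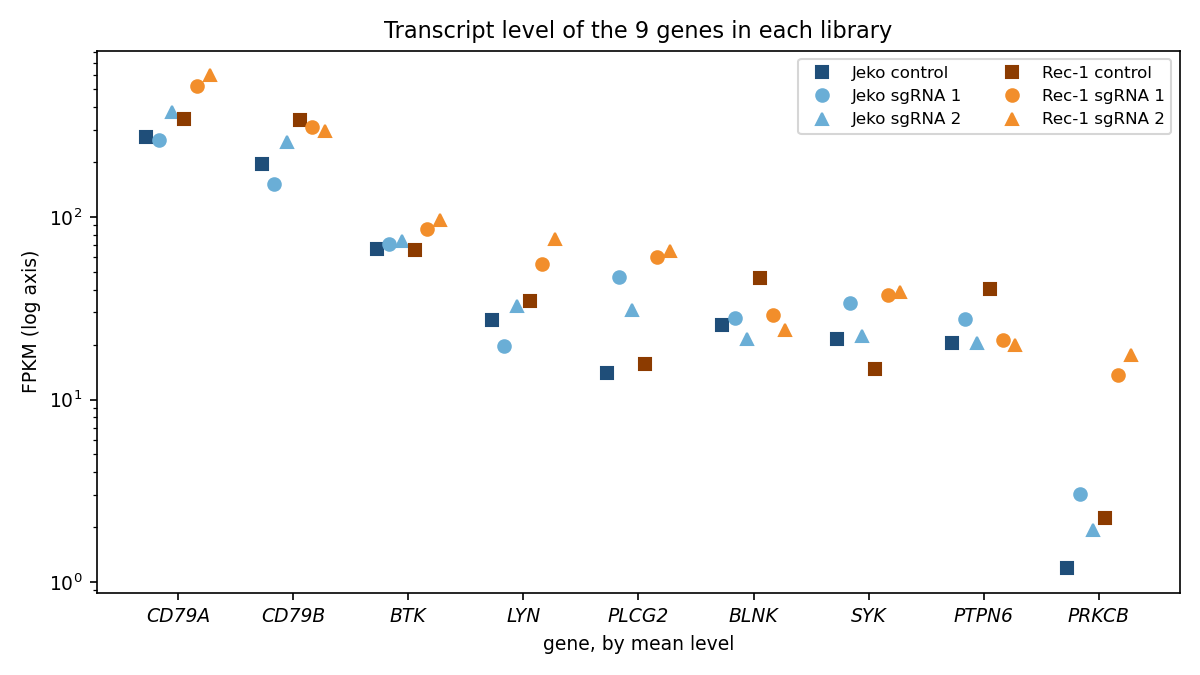
FPKM (vertical log axis) of each of the 9 genes, ordered by mean level, with 1 point for each of the 6 libraries and no error bars because no group has replicates beyond the 2 sgRNA libraries of a line. CD79A, CD79B and BTK hold the first 3 places and PRKCB the last in every library, while the places between are shared by 5 genes whose ranges overlap.

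By mean level the order was CD79A (396 FPKM), CD79B (258), BTK (76.8), LYN (40.7), PLCG2 (38.7), BLNK (29.0), SYK (28.1), PTPN6 (24.9) and PRKCB (6.60). Neighbours in this order kept it in all 6 libraries for CD79A over CD79B, CD79B over BTK, BTK over LYN and PTPN6 over PRKCB. The ranges of the 5 genes from LYN to PTPN6 overlapped, and their order changed from library to library. LYN was above PLCG2 in 4 of 6 libraries, PLCG2 above BLNK in 4 (the sgRNA libraries), BLNK above SYK in 2 (those labelled control), and SYK above PTPN6 in 5.

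Ratios taken within a library do not depend on how that library was scaled, and they are given as descriptions with no test. BTK exceeded its substrate PLCG2 by 4.79-fold in the Jeko control and 4.22-fold in the library labelled Rec-1 control. In the 4 sgRNA libraries the excess was 1.51-fold and 2.39-fold for Jeko and 1.44-fold and 1.49-fold for Rec-1, so the libraries labelled control and sgRNA did not overlap. The excess of BTK over SYK was between 2.09-fold (Jeko sgRNA 1) and 4.48-fold (Rec-1 control), and the ranges for control and sgRNA did overlap. BLNK was 1.19 and 3.12 times SYK in the libraries labelled Jeko and Rec-1 control. It was between 0.618 and 0.956 times SYK in the sgRNA libraries. The share of all gene pairs whose ratios separate control from sgRNA libraries was not computed. The ratios are not adjusted for transcript length, which is 2575 nt for BTK and 8666 nt for PLCG2. Protein-coding genes near these lengths had median differences, sgRNA minus control, of −0.09 and 0.41 in Jeko. In Rec-1, as labelled, these medians were −0.11 and 0.16. Of all genes tested, 21.0% were above and 21.1% below their own control in all 4 sgRNA libraries.

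The level of the initiating kinase LYN relative to SYK and PTPN6 varied over the 6 libraries. LYN was below SYK in the library labelled Jeko sgRNA 1, at 0.578 times its level, and above it in the other 5, by 1.27-fold to 2.34-fold. PTPN6, the phosphatase that opposes these kinases, was 0.743, 1.40 and 0.626 times LYN in the 3 Jeko libraries and 1.17 times LYN in that labelled Rec-1 control. In the Rec-1 sgRNA libraries 1 and 2, as labelled, it was 0.385 and 0.264 times LYN, the lowest values of the 6. CD79A and CD79B were closest to each other in the library labelled Rec-1 control, with a ratio of 1.02, and farthest apart in that labelled Rec-1 sgRNA 2, with 2.01.

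**Figure D2:**
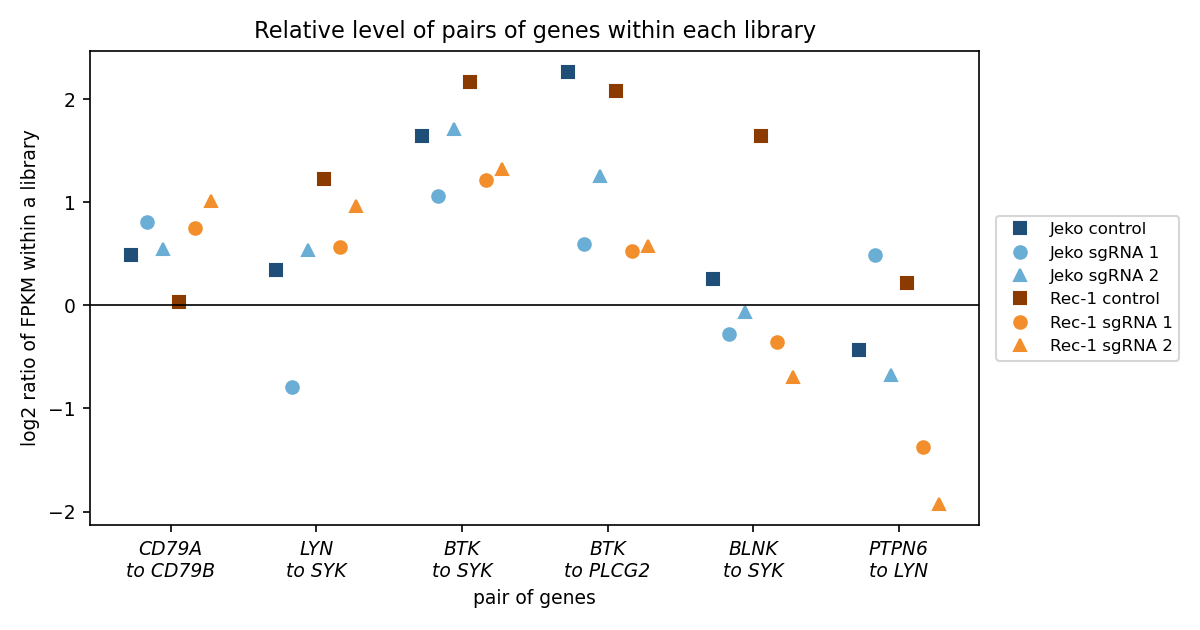
Log2 ratio of FPKM of 2 genes within a library (vertical axis) for 6 pairs, 1 point a library, where 0 marks equal levels. The ratios are not adjusted for transcript length. For BTK to PLCG2 the libraries labelled control lie at 2.26 and 2.08 and the 4 sgRNA libraries between 0.52 and 1.26, and for PTPN6 to LYN the sgRNA libraries labelled Rec-1 lie lowest, at −1.38 and −1.92.

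The effect of the sgRNA over both lines was fitted on log2(FPKM + 1) with limma, 4 sgRNA libraries against 2 controls with the line as covariate. PLCG2 was the gene of the 9 with the largest estimate, 1.65 on the log2 scale (SE 0.26, limma adjusted p 0.131), and it was higher in 4 of 4 sgRNA libraries. PRKCB followed with 1.49 (SE 0.43, limma adjusted p 0.190) and SYK with 0.82 (SE 0.30, limma adjusted p 0.219), each higher in 4 of 4. BTK was also above the control of its line in all 4, with a difference of 0.28 (SE 0.19, limma adjusted p 0.381). No other member kept a direction in all 4. The count of 4 of 9 above control in all 4 libraries stands beside 21.0% of all genes tested, and the count of 0 below it in all 4 beside 21.1%. None of the 9 passed an adjusted p of 0.05, where limma called 0.246% of 11400 genes (0.184% higher, 0.0614% lower), and 3 of the 9 (SYK, PLCG2 and PRKCB) had an unadjusted p under 0.05, beside 21.1% of all genes. The remaining estimates were 0.45 for CD79A, −0.07 for CD79B, 0.38 for LYN, −0.42 for BLNK and −0.37 for PTPN6, with limma adjusted p between 0.288 and 0.874. CD79B changed sign with rescaling over protein-coding genes and with adjustment for transcript length, and LYN, CD79B and PTPN6 changed sign without the library labelled Rec-1 control. Residual spread in this fit is that between the 2 sgRNA libraries of a line, which carry different guides. It also includes the disagreement of the lines over the sgRNA difference. Nothing in the labels says that libraries of a line came from separate cultures, so the spread between independent cultures may not be measured.

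Within Jeko, where both sgRNA libraries share 1 control, 4 of the 9 genes (SYK, BTK, PLCG2 and PRKCB) were above the control in both and none was below it in both, beside 36.9% and 36.4% of all genes tested. PLCG2 was 3.34 and 2.19 times the control, a log2 difference of 1.38 (SE 0.33, limma adjusted p 0.393). PRKCB was 2.55 and 1.62 times the control at low levels (log2 difference 0.65, SE 0.30, limma adjusted p 0.485). The other 7 lay between −0.11 (LYN) and 0.34 (SYK). None of the 9 passed, where limma called 0.439% of genes (0.149% higher, 0.289% lower). An unadjusted p under 0.05 was found for 1 of the 9, PLCG2, beside 11.3% of all genes. Residual spread here is that between the 2 sgRNA libraries of a line, and each lone control is assumed to vary alike.

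The Jeko differences over protein-coding genes varied with transcript length, which not all of the 9 followed. PLCG2 and PRKCB have the longest annotated transcripts of the 9, 8666 and 8010 nt, and protein-coding genes within 0.8 to 1.25 times these lengths had median Jeko differences of 0.41 (955 genes) and 0.37 (1144 genes). Genes near the length of CD79A (1099 nt) had a median of −0.38, where CD79A itself was at 0.21. LYN (5872 nt) and BLNK (4344 nt) were at −0.11 and −0.06, against medians of 0.29 and 0.17. Adjusted for length, the Jeko difference was 0.98 for PLCG2 (limma adjusted p 0.690) and 0.28 for PRKCB (limma adjusted p 0.934). In Rec-1 the corresponding medians near PLCG2 and PRKCB were 0.16 and 0.17, and both genes kept their calls with length adjustment (1.75, limma adjusted p 0.0216, and 2.17, limma adjusted p 0.00858). The cause of the relation with length was not tested.

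The guides were also set against each other. Relative to the library labelled Jeko sgRNA 1, that labelled Jeko sgRNA 2 was higher in CD79A, CD79B and LYN by 0.51, 0.77 and 0.69 on the log2 scale. It was lower in SYK, PLCG2, PRKCB, PTPN6 and BLNK by 0.37 to 0.59. BTK differed by 0.05. Between the Rec-1 sgRNA libraries 1 and 2, as labelled, the differences, 2 minus 1, ran from −0.27 for BLNK to 0.45 for LYN. With 1 library for each guide in a line, these differences have no replicate.

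**Figure D3:**
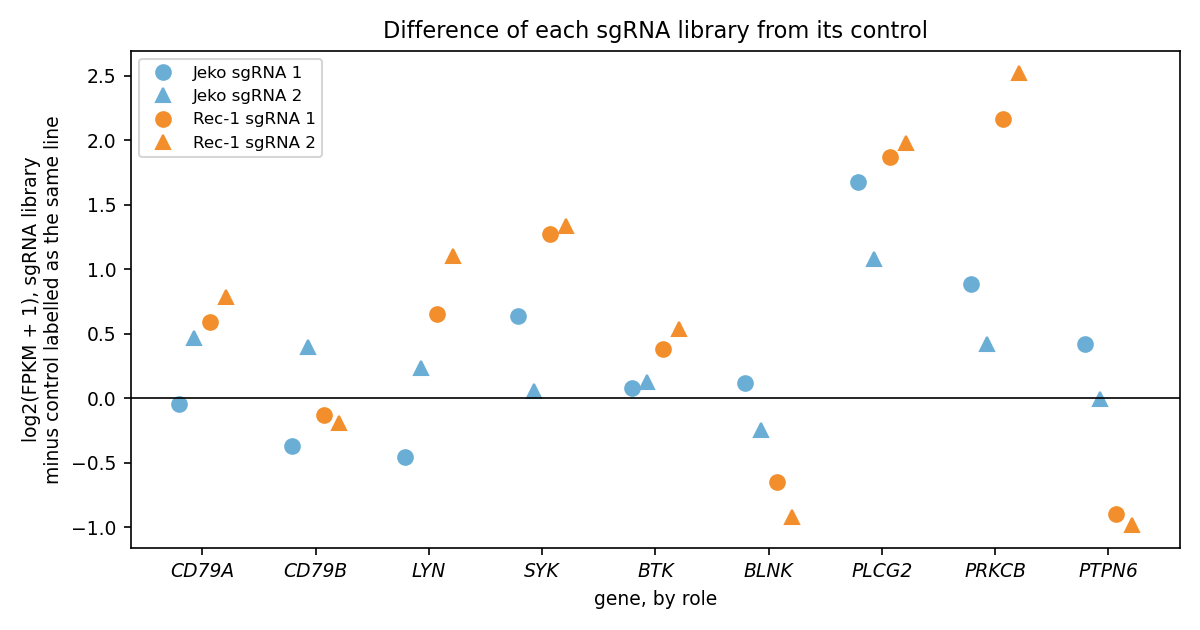
Difference on the log2(FPKM + 1) scale (vertical axis) of each sgRNA library from the control labelled as the same line, for the 9 genes by role, 1 point a library. PLCG2 and PRKCB are above 0 in all 4, from 1.08 to 1.98 and from 0.42 to 2.52, and BLNK and PTPN6 are below 0 in both libraries labelled Rec-1 sgRNA.

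Against the library labelled Rec-1 control, PLCG2 and PRKCB were higher in those labelled Rec-1 sgRNA 1 and 2 and passed the test. PRKCB was 6.01 and 7.82 times that control (log2 difference 2.34, SE 0.30, limma adjusted p 0.0175) and PLCG2 3.82 and 4.12 times (1.92, SE 0.33, limma adjusted p 0.0300). Limma called 19.2% of all genes tested in this comparison (10.0% higher, 9.11% lower), so 2 of 9 is near the share of the whole table. At an unadjusted p under 0.05 there were 5 of the 9, beside 38.6% of all genes. SYK was 2.52 and 2.62 times the control (1.30, SE 0.32, limma adjusted p 0.0624) and passed only with rescaling over protein-coding genes (adjusted p 0.0238). BLNK was 0.630 and 0.519 times it (−0.78, SE 0.28, limma adjusted p 0.125) and PTPN6 0.526 and 0.493 times (−0.94, SE 0.27, limma adjusted p 0.0843). CD79A, LYN and BTK were above it in both and CD79B below it in both, with limma adjusted p from 0.185 to 0.789. In all, 6 of the 9 were above the control in both libraries and 3 below, beside 41.8% and 43.1% of all genes. The calls of PLCG2 and PRKCB were both lost when any of the 4 sgRNA libraries was left out, with limma adjusted p between 0.05045 and 0.136. With no filter on low values PLCG2 had a limma adjusted p of 0.0533.

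Whether the sgRNA difference was unequal in the lines, as labelled, was tested as an interaction. It passed for none of the 9 (limma called 6.94% of genes, 3.68% with a positive and 3.25% with a negative estimate), and 2 of the 9, PTPN6 and PRKCB, had an unadjusted p under 0.05, beside 21.9% of all genes. The estimates, Rec-1 minus Jeko, were 1.69 for PRKCB (SE 0.43, limma adjusted p 0.126) and −1.15 for PTPN6 (SE 0.38, limma adjusted p 0.196), and those of the other 7 lay between −0.72 (BLNK) and 0.99 (LYN) with limma adjusted p of at least 0.317.

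The controls differed from each other at several of these genes although they were close across the transcriptome. The library labelled Rec-1 control had 1.98 times the PTPN6, 1.89 times the PRKCB, 1.80 times the BLNK and 1.73 times the CD79B of the Jeko control. A difference of at least 1.5-fold between the controls was thus seen at 4 of the 9, beside 11.6% of all genes tested, and all 4 were higher in the library labelled Rec-1, beside 6.21%. BTK was the closest, at 0.986 times, and SYK was lower, at 0.686 times. With 1 library each, this comparison has no replicate check. BLNK and PTPN6, lower than the control in both sgRNA libraries labelled Rec-1, were between 19.9 and 29.0 FPKM in all libraries but that control.

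Comparing the sgRNA libraries labelled Rec-1 with those labelled Jeko sgRNA, 2 against 2, leaves both controls out of the difference. PRKCB was higher by 2.26 on the log2 scale (SE 0.25, limma adjusted p 0.00941), at 13.5 and 17.6 FPKM against 3.04 and 1.93 FPKM. It was the only one of the 9 to pass, where limma called 25.9% of all genes (12.8% higher, 13.0% lower), and it did not pass when any of the 4 libraries was left out (limma adjusted p 0.0551 to 0.0750). At an unadjusted p under 0.05 there were 3 of the 9, beside 42.3% of all genes. LYN was higher by 1.32 (SE 0.33, limma adjusted p 0.0570) and CD79A by 0.81 (SE 0.25, limma adjusted p 0.0832). Both passed with rescaling over protein-coding genes (adjusted p 0.0167 and 0.0326). For LYN the adjusted p was 0.0294 with the guide number as a block and 0.0268 with adjustment for transcript length. The other 6 differed by −0.20 (PTPN6) to 0.70 (PLCG2) with limma adjusted p from 0.129 to 0.758. In 7 of the 9 both libraries labelled Rec-1 sgRNA were above both labelled Jeko sgRNA, and in none were both below, beside 32.9% and 37.0% of all genes. BLNK and PTPN6 were the 2 that overlapped.

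The promoters of PLCG2 and PRKCB, the genes with the widest ranges over the 6 libraries, are shown with that of BTK, which had the narrowest, as the 250 bases before the annotated gene start (RefSeq, GRCh38.p14). Capitals mark exact matches, on either strand, of 6 motifs: AAAGGTCA (the NR4A1 response element NBRE), ATGCAAAT (octamer), GAGGAAGT (a PU.1 core), TCCC and GGGA with 2 bases between (an EBF site), GGGCGG (Sp1) and CAGGTG (E2A). The regions are chr16:81738791-81739040 on the plus strand for PLCG2, chr16:23835733-23835982 on the plus strand for PRKCB and chrX:101390797-101391046 on the minus strand for BTK. These RefSeq starts were not matched to the GRCh37 positions and transcript lengths given above. The PLCG2 window may therefore belong to another start than that of its 8666 nt transcript.
PLCG2: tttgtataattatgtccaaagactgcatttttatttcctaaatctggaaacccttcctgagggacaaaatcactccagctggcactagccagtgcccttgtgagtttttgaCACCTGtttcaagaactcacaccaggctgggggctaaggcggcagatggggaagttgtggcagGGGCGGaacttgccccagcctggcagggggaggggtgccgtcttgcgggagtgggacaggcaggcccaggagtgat
PRKCB: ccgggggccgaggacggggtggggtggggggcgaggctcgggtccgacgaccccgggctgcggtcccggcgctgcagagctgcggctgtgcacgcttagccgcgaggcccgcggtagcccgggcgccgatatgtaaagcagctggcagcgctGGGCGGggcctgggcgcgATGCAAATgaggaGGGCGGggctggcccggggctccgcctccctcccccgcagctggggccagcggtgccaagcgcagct
BTK: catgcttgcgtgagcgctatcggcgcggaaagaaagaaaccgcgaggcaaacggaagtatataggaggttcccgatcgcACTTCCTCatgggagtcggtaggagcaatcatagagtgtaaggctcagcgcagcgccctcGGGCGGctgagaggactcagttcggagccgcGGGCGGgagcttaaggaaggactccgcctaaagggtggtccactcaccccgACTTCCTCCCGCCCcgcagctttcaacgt
The table of promoters held 7 of the 9 genes, without CD79B and LYN. NBRE letters were found in 0 of these 7 windows and in 1.05% of all 27305 promoters of that length. The PRKCB window held 1 octamer, found in 1.66% of promoters, starting 80 bases before the gene start, between 2 Sp1 boxes. In that of BTK there were 2 PU.1 cores, found in 2.13% of promoters, and 3 Sp1 boxes that overlap neither. PLCG2 had 1 Sp1 box and 1 E2A site, letters that 42.3% and 17.5% of promoters hold. EBF letters, found in 1.08% of promoters, were in none of the 3. The 3 windows differed in base composition, with 77.2% G and C and 30 CpG in PRKCB, 60.4% and 24 in BTK and 54.4% and 4 in PLCG2, against medians of 58.0% and 11 over all promoters. A match describes letters only.

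The rest of the pathway was read from 6 lists with 118 gene symbols, of which 113 were in the table and 96 were tested. The symbols IGJ and JCHAIN, both listed, stand for the same gene, found as IGJ. Over both lines and within Jeko limma called 0 of the 96. Against the library labelled Rec-1 control 24 were higher and 6 lower in those labelled Rec-1 sgRNA, 31.2% of the 96 beside 19.2% of all genes. Between the sgRNA libraries labelled Rec-1 and Jeko sgRNA 32 were higher and 11 lower, 44.8% beside 25.9%. The markers given above moved with these same libraries.

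The immunoglobulin list held wide differences in both directions. VPREB1, part of the surrogate light chain of B-cell precursors, was 80.8 and 118 FPKM in the Rec-1 sgRNA libraries 1 and 2, as labelled, and at most 2.74 FPKM in the other 4 (log2 difference from Jeko sgRNA 5.39, SE 0.52, limma adjusted p 0.00693). IGLL5 was 132 and 58.4 FPKM there and between 2708 and 3004 FPKM in the other 4 (−4.98, SE 0.44, limma adjusted p 0.00531). IGLL1 was 41.8 and 32.4 FPKM there and 352 to 731 FPKM elsewhere. IGLL5 and IGLL1 share sequence with the lambda light chain constant genes, so their values are uncertain. IGJ, the joining chain of secreted antibody, was between 784 and 1858 FPKM in all 6. Between the sgRNA libraries labelled Rec-1 and Jeko sgRNA, 1 of the 5 tested genes was called higher and 2 lower, 60.0% beside 25.9% of all genes. The heavy chain genes IGHM, IGHD and IGHG1 and the kappa light chain gene IGKC were listed but had no row under these symbols, so they could not be tested.

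Co-receptors and surface modulators gave 4 calls in 10 tested genes, 40.0% beside 25.9% of all genes. All 4 were higher in the sgRNA libraries labelled Rec-1 than in those labelled Jeko sgRNA. CD72, an inhibitory receptor that recruits SHP-1, was 123 and 119 FPKM against 8.14 and 13.5 FPKM (log2 difference 3.41, limma adjusted p 0.00490). CD37 and LILRB1 differed by 3.89 and 2.93. CD22, also an inhibitory receptor that recruits SHP-1, was 3.57 FPKM in the Jeko control, 12.8 and 8.95 FPKM in those labelled Jeko sgRNA 1 and 2, 6.88 FPKM in that labelled Rec-1 control and 19.3 and 26.6 FPKM in those labelled Rec-1 sgRNA 1 and 2. It rose against the library labelled Rec-1 control (1.59, SE 0.33, limma adjusted p 0.0469) but its difference from Jeko sgRNA did not pass (1.012, limma adjusted p 0.0657). CD81 and FCRLA were abundant in all 6, with means of 474 and 295 FPKM, and were called in neither comparison.

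**Figure D4:**
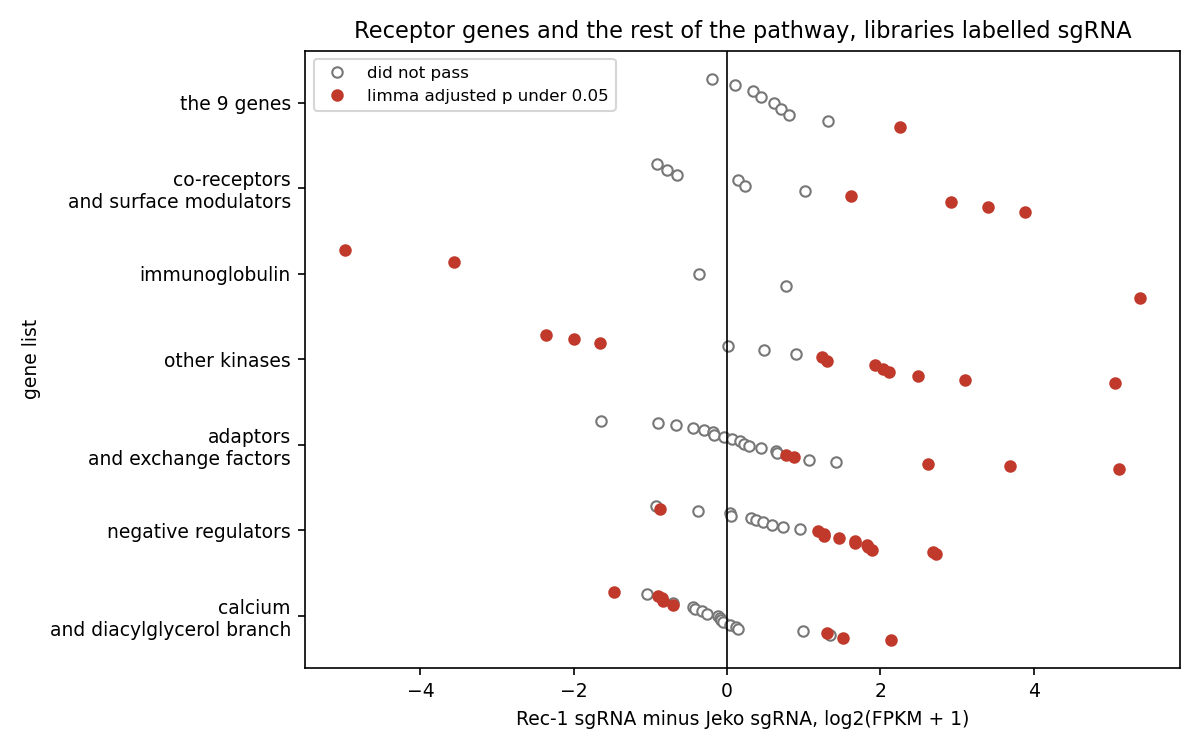
Difference between the sgRNA libraries labelled Rec-1 and those labelled Jeko sgRNA on the log2(FPKM + 1) scale (horizontal axis) for each tested gene of the 9 and of 6 pathway lists (vertical axis), 1 point a gene, filled red where the limma adjusted p was under 0.05. PRKCB at 2.26 is the only filled point of the 9, and 32 filled points of the other lists lie above 0 and 11 below.

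Relatives of the module's own kinases came next. Of the Src, Syk, Tec and protein kinase C families 14 kinases were tested. Against the libraries labelled Jeko sgRNA, 8 were higher and 3 lower in those labelled Rec-1 sgRNA, 78.6% beside 25.9% of all genes. ZAP70, the T-cell counterpart of SYK, was 39.5 and 29.3 FPKM there and at most 0.156 FPKM in the other 4 (log2 difference 5.07, SE 0.20, limma adjusted p 0.00140). The Src-family kinases LCK, FGR, BLK and FYN differed by 2.11, 2.50, 1.30 and 3.10, with LCK at 34.8 and 38.9 FPKM there against 6.76 and 8.92 FPKM. YES1 was lower by 1.66. Among the protein kinase C genes PRKCA was higher (9.30 and 13.3 FPKM against 4.80 and 3.56 FPKM) and PRKCZ lower (0.131 FPKM and a listed 0 against 2.01 and 4.93 FPKM). PRKCD, which opposes B-cell activation, was between 17.3 and 31.1 FPKM in all 6 libraries and exceeded PRKCB in each.

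Of 22 tested adaptors and exchange factors, 5 were higher in the same comparison and none lower, 22.7% beside 25.9% of all genes. LCP2 is the relative of BLNK used in T cells, and LAT2 is a membrane adaptor of B and myeloid cells. LAT2 was 68.0 and 96.0 FPKM against 0.764 and 2.14 FPKM (log2 difference 5.12, limma adjusted p 0.00356), and LCP2 was 5.46 and 4.89 FPKM against a listed 0 in both. STAP1, VAV2 and CRK differed by 3.69, 0.87 and 0.77. GRB2, with a mean of 84.2 FPKM, and HCLS1, with 128 FPKM, were the most abundant adaptors and were not called.

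Among 22 tested negative regulators 11 were higher and 1 lower in the same comparison, 54.5% beside 25.9% of all genes. The lipid phosphatase INPP5D, which removes the product of phosphoinositide 3-kinase, was 47.7 and 38.0 FPKM against 20.2 and 16.4 FPKM (log2 difference 1.18, SE 0.22, limma adjusted p 0.0308). The ubiquitin ligase CBL, which marks activated kinases for removal, was 10.96 and 11.6 FPKM against 2.33 and 2.62 FPKM (1.82, SE 0.15, limma adjusted p 0.00454). DOK3, an adaptor that restrains the receptor signal, was 189 and 123 FPKM against 53.3 and 41.4 FPKM (1.67, limma adjusted p 0.0281). UBASH3B, PAG1, PTPN22, SLA, SLA2, DOK1, DOK2 and DGKA were the others called higher, and the phosphatase PTPN2 was called lower (−0.87). CSK, the kinase that holds Src-family kinases inactive, had a mean of 54.5 FPKM and was not called (0.95, limma adjusted p 0.0966). PTPN6 itself stayed within 19.9 to 27.5 FPKM over these 4 libraries.

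Downstream of PLCG2, 23 genes of the calcium and diacylglycerol branch were tested. Of these 3 were higher and 5 lower in the same comparison, 34.8% beside 25.9% of all genes. STIM1, the calcium sensor of the endoplasmic reticulum, was 28.9 and 27.8 FPKM against 8.96 and 13.3 FPKM (log2 difference 1.30, limma adjusted p 0.0302). Of its channel partners ORAI3 was higher (2.14, limma adjusted p 0.00814) and ORAI2 lower (−1.47, limma adjusted p 0.0171). NFATC1, a transcription factor activated by calcium, was higher by 1.51. STIM2, PPP3CB, NFATC2 and RASGRP3 were lower by 0.70 to 0.89. CALM2, a calmodulin gene with a mean of 448 FPKM, was the most abundant of the branch and was not called. NFATC3 was 7.58 FPKM in the control of Jeko, 13.1 and 13.8 FPKM in those labelled Jeko sgRNA 1 and 2, and 7.13 FPKM in that labelled Rec-1 control and 15.4 and 13.8 FPKM in those labelled Rec-1 sgRNA 1 and 2. It rose against the library labelled Rec-1 control (0.94, limma adjusted p 0.0481), and within Jeko its difference of 0.75 had a limma adjusted p of 0.397.

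PRKCB, PLCG2 and LYN had the widest ranges of the 9 over the 6 libraries, 3.09, 2.13 and 1.89 on the log2 scale. The protein-coding genes whose values followed each most closely are given as a description over 6 libraries that share their groups. They were picked for the highest r among the 10322 protein-coding genes tested, so values near the maximum are expected from the selection. For PRKCB these were FIG4 (Pearson r 0.9999), CPNE1 (0.999) and PFKFB3 (0.997). PLCG2 was followed by SLC39A10 (0.996), PKN2 (0.995) and WDR36 (0.993). SLC39A10, a zinc transporter, was 2.06 FPKM in the Jeko control, 7.39 and 4.82 FPKM in those labelled Jeko sgRNA 1 and 2, 2.19 FPKM in that labelled Rec-1 control and 8.61 and 11.1 FPKM in those labelled Rec-1 sgRNA 1 and 2. LYN was followed by TXNL1 (0.996), MOB4 (0.995) and GMPR2 (0.993).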

How the data were processed

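Total RNA of 6 libraries was made into cDNA with an Illumina TruSeq RNA kit, per the labels' protocols. The authors deposited FPKM values, 1 column a library, per the file headers. TopHat and hg19 are named in the submitters' processing notes. The program that computed FPKM, the annotation and the use of strand are not given in the sources used here. FPKM are not counts, so the fragments behind a value and its counting error are unknown. FPKM summed to 905778 to 1160107 a library.

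Values were analysed as log2(FPKM + 1), which understates the change of genes with low FPKM. Limma 3.58.1 in R 4.3.3 (lmFit, eBayes with a trend) was fitted to the 11400 genes whose FPKM averaged 1 or more, with Benjamini-Hochberg adjustment over all of them and a threshold of 0.05. One model had the line and the sgRNA. The other had a mean for each of the 4 groups. The first model was tested on simulated data. Symbols were matched to GENCODE on GRCh37 for position, type and canonical transcript length (22947 rows matched, and 11032 of the tested genes have a length).

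The members and lists were chosen with earlier results of these data known. Named from each list were the 3 genes of highest mean, the 3 of widest range and every gene called in a comparison, of which the text gives a part by value. Some of these genes are counted but not reported here by name. For likeness, the 3 genes of highest Pearson r were named for the 3 members of widest range. Promoter sequences are from RefSeq. Alternatives were a pseudocount of 0.1, no filter, the guide number as a replicate block, rescaling to protein-coding genes, adjustment for transcript length by lowess, and leaving out each library.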

Additional observations from a re-analysis of the deposited data

Results flagged for a closer look

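By the limma interaction test the sgRNA difference was unequal in the lines, as labelled, at none of the 9 genes. It was unequal at 11 of 96 other pathway genes tested, 11.5% beside 6.94% of all genes. The Rec-1 side of this test uses the library labelled Rec-1 control. That library correlated with the Jeko control at 0.988 and with the Rec-1 sgRNA libraries, as labelled, at 0.80 and 0.81. The part of library identity in these estimates was not tested. The interaction, Rec-1 minus Jeko on the log2 scale, was positive for ZAP70 (5.20, limma adjusted p 0.00845), VPREB1 (5.51, adjusted p 0.0498), LAT2 (4.81, adjusted p 0.0312), STAP1 (3.24, adjusted p 0.0473), LILRB1 (2.61, adjusted p 0.0248), LCP2 (2.58, adjusted p 0.0130), LCK (2.33, adjusted p 0.0420), UBASH3B (2.06, adjusted p 0.0412) and CBL (1.82, adjusted p 0.0348). It was negative for IGLL5 (−4.92, limma adjusted p 0.0423) and YES1 (−1.70, adjusted p 0.0280). No group has the 4 libraries needed to look for an outlying one.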

How the results depend on the processing

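Over the 9 genes and 5 comparisons, 459 values were recomputed under other settings, and 422 kept their direction and their side of the threshold, 13 lost and 7 gained a call, and 17 changed sign. The fit over both lines called 28 genes, against 12 with no filter, 9 with guide number added as a replicate block and 0 with rescaling over protein-coding genes (where 2315 had an unadjusted p under 0.05), and 11 to 2180 without 1 library. Within Jeko 50 genes were called, against 7 with that rescaling and 41 to 51 without 1 library. Leaving out 1 library moved the 2184 genes called within Rec-1 to between 657 and 2180, the 2947 between Rec-1 sgRNA and Jeko sgRNA to between 803 and 2940, and the 791 of the interaction to between 75 and 454, the fewest without Jeko sgRNA 2. With the replicate block the interaction called 428. Deviations of guides with the same number correlated between the lines at 0.0998 over 11400 genes. By the labels, libraries with the same number carry an NR4A1 sgRNA of the same name in both lines. The block gave LYN a call between the sgRNA groups, 1.32 as before, and changed no other call among the 9.

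Over both lines PLCG2 and PRKCB passed without the Jeko control (1.92 and 2.34), when only Rec-1 libraries enter the difference. Sign changes over both lines were CD79B at 0.0147 with rescaling, 0.19 with length adjustment and −0.25 to 0.0794 without 1 library, and, without 1 library, LYN (−0.11 to 0.88) and PTPN6 (−0.94 to 0.21). Within Jeko they were BLNK at 0.0048 with rescaling and, without 1 library, CD79A (−0.0451 to 0.47), CD79B (−0.37 to 0.40), LYN (−0.46 to 0.24), BLNK (−0.25 to 0.12) and PTPN6 (−0.0028 to 0.42). Within Rec-1 CD79B was 0.0493 with length adjustment. Without 1 library the CD79B interaction lay between −0.56 and 0.21, and between the sgRNA groups BLNK lay between −0.0805 and 0.29 and PTPN6 between −0.41 and 0.0154. The cause of these shifts was not tested. The mean log2 ratio of BLNK to SYK went from 0.083 to −0.23 without the library labelled Rec-1 control. Each line has 1 control, and the number of fragments behind low values, such as PRKCB in the Jeko control, is unknown.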
